A study of Mus musculus with 18 samples.

Results

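The regions described here are H3K4me3 peaks that stand in densely marked stretches of the mouse genome and are present in islets of both genotypes. They were chosen as autosomal peaks of the control list with a deposited score of at least 300 that overlapped a knockout peak by 1 bp or more and had 20 or more other control peaks with midpoints within 250 kb (250000 bp) of their own midpoint. The rule found 1928 peaks among the 21905 of the control list (8.80%). They are set beside the other 13481 shared autosomal control peaks of score 300 or more, which had fewer neighbours. Together these make 15409 peaks, of which the densely set peaks are 12.5%. Control score, control position and the presence of a knockout peak chose the members, so control score, spacing and sharing are given as a description. Knockout widths took no part in the choice.

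The knockout sample came from pancreatic islets of mice in which Men1 was deleted specifically in the islets, and the control sample from islets of RIP-Cre mice, both harvested at 2 months of age. The strain background of both was a mixture of 129s6 with FVB/N and with C57BL/6. RIP-Cre is Cre recombinase driven by the rat insulin promoter, which is active in beta cells, and an islet also holds other endocrine and supporting cells. The labels do not name the Cre driver of the knockout, and whether animals were pooled is not given in the sources used here. The series holds 18 samples, and the other 16 (inputs, H3K27me3 and later ages) were not analysed here. Islet marker genes could not be looked up on this build, so the tissue label was not checked.

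H3K4me3 is trimethylation of lysine 4 on histone H3, a mark placed around the start sites of active and poised genes. Menin, the product of Men1, is a subunit of the MLL1 and MLL2 methyltransferase complexes that place methyl groups on this residue, and loss of Men1 gives rise to endocrine tumours, including tumours of the islet. Genes are unevenly spread along mammalian chromosomes, and gene-dense stretches carry many promoters, and with them many H3K4me3 peaks, at short distances.

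Each genotype has 1 library and the lists give no read counts, so there is no replicate check, no p-value and no known depth. The intervals below are 95% intervals over peaks (order-statistic for medians, exact binomial for shares). They treat peaks as independent, cover neither animals nor libraries, and would be wider if the shared behaviour of neighbouring peaks were counted. A difference between the lists in depth or enrichment cannot be told apart from one of genotype.

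The densely set peaks gathered in 99 loci, formed by chaining members whose midpoints lay within 250 kb of the next. The loci spanned 41.4 Mb in all and held a median of 17 members, with a range from 1 member, found in 8 loci, to 113. The longest was 2.01 Mb. Within these loci there was 1 control peak for every 16.9 kb, and peaks covered 11.0% of the span in the knockout list and 11.9% in the control list. The members thus stood in short, crowded stretches.

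The loci were unevenly spread over the chromosomes. Chromosome 7 held 333 members, or 29.0% of its shared peaks of score 300 or more (interval 26.3 to 31.7). The share was 24.6% on chromosome 17, 24.2% on chromosome 19, 22.8% on chromosome 11 and 20.9% on chromosome 10. At the other end, chromosome 12 had 1 member and chromosome 16 had 7. The 4 chromosomes with the most members (7, 11, 17 and 10) held 50.7% of them but 25.8% of all shared peaks of this score.

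The locus with the most members lay on chromosome 10 (mm9, 79099291 to 81107521) and held 113. It contained 142 knockout peaks covering 264 kb and 146 control peaks covering 288 kb. A one-to-one pair is a control and a knockout peak that overlap each other and no further peak. Of the 102 such pairs in this locus, the knockout peak was the narrower in 75. The 3 members with the most neighbours, 47 control peaks each, stood near its right end.

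**Figure D1:**
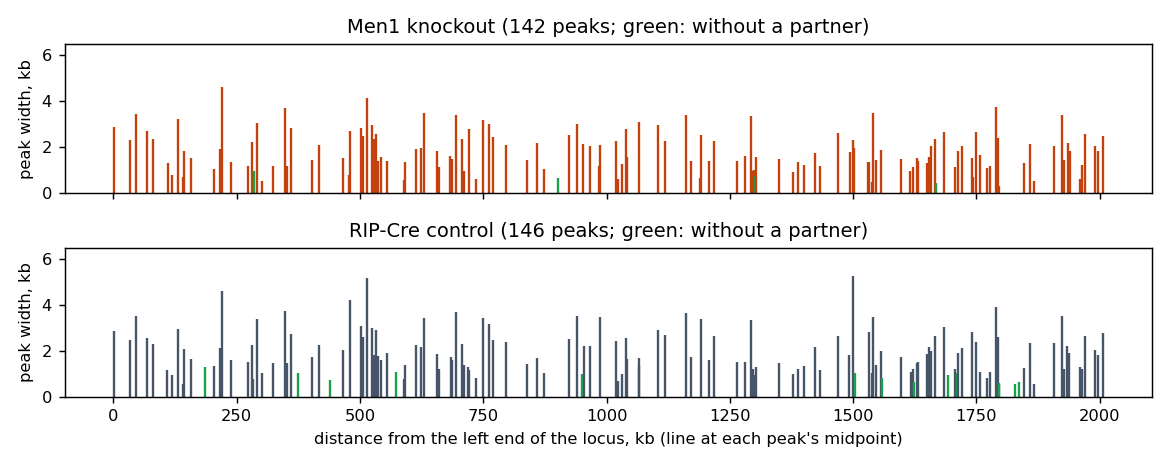
Widths of the H3K4me3 peaks in the chromosome 10 locus with the most members, plotted in kb against distance in kb from the left end of the locus, with the Men1 knockout list above and the RIP-Cre control list below. The 142 knockout and 146 control peaks follow nearly the same positions. Green lines are the 4 knockout and 13 control peaks without a partner in the other list.

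Of the 3 members with 47 neighbours, one (80846404 to 80848796) was 2648 bp wide in the knockout list and 2393 bp in the control list. The next (80886607 to 80890527) was 3763 bp wide in the knockout and 3921 bp in the control list. The last (80839448 to 80842256), of 2809 bp in the control list, overlapped 2 knockout peaks. The knockout peak was thus wider in the first of these and narrower in the next, which does not describe the stretch as a whole.

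The next 4 loci by number of members were on chromosomes 7, 19, 11 and again 7. The first of them, on chromosome 7 (51614452 to 53130755), held 74 members and had 100 knockout peaks against 96 control peaks, with a median log2 width ratio of -0.082. The chromosome 19 locus (4838265 to 6308666) held 66 members, with 76 knockout and 75 control peaks, and had a median ratio of -0.086. The chromosome 11 locus (68664073 to 69835792) held 64 members, with 76 knockout and 75 control peaks and a median ratio of -0.082. The second locus on chromosome 7 (133708475 to 135021522) held 56 members, with 64 knockout and 66 control peaks and a median ratio of -0.045. In all 5 of the largest loci the median was below 0, and in the last its interval (-0.105 to 0.017) included 0, as it did for chromosome 19 (-0.136 to 0.0013).

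Members stood much closer to their neighbours than the other shared peaks did, but were similar in width. They had a median gap to the nearest control peak of 5913 bp (interval 5683 to 6480), against 23370 bp (interval 22725 to 23993) for the other shared peaks, a difference that follows from the rule. The nearest control peak lay within 1 kb for 12.8% of members and 5.62% of the others, and beyond 20 kb for 9.49% of members and 54.8% of the others. Median control width was 2059 bp (interval 2016 to 2114) for members and 2142 bp (interval 2126 to 2160) for the others. The middle 80% of members ran from 1270 to 3482 bp and that of the others from 1277 to 3565 bp, so the width distributions were nearly superimposed. Peaks of 4 kb or more made up 5.45% of members (interval 4.48 to 6.55) and 6.13% of the others (interval 5.73 to 6.55).

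A score of 3100 or more was somewhat rarer among members than among the other shared peaks in each list, with intervals that did not overlap. In the knockout list the partner of a member in a one-to-one pair scored 2572 in the median, and the partner of another shared peak 2859. Of the knockout partners of members, 41.9% had a score of at least 3100 (interval 39.7 to 44.3), as had 46.2% of those of the others (interval 45.3 to 47.1). In the control list 54.6% of members (interval 52.3 to 56.8) and 57.9% of the others (interval 57.1 to 58.8) had such a score. A knockout score under 300 was found for 129 partners of members (7.14%) and 6.75% of partners of the others. Many peaks are tied at 3100 and some score higher, up to 3233, so the scores do not rank the strongest peaks.

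H3K4me3 peaks in densely marked regions were narrower in the Men1 knockout list, but by less than the other shared peaks. Over 1807 one-to-one pairs, members had a median width of 1922 bp in knockout islets and 2031 bp in control islets. Over 12966 pairs the other shared peaks had 1950 bp in knockout and 2121 bp in control islets. As log2 of knockout over control width, the median was -0.081 for members (interval -0.089 to -0.073) and -0.114 for the others (interval -0.117 to -0.111). The median member thus kept 94.5% of its control width in knockout islets, against 92.4% for the others, a difference of medians of 0.033 on the log2 scale. The spread between pairs was several times larger, with an SD of 0.23 among members and 0.24 among the others, so the distributions overlapped almost wholly. With 1 library per genotype the difference could not be tested.

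**Figure D2:**
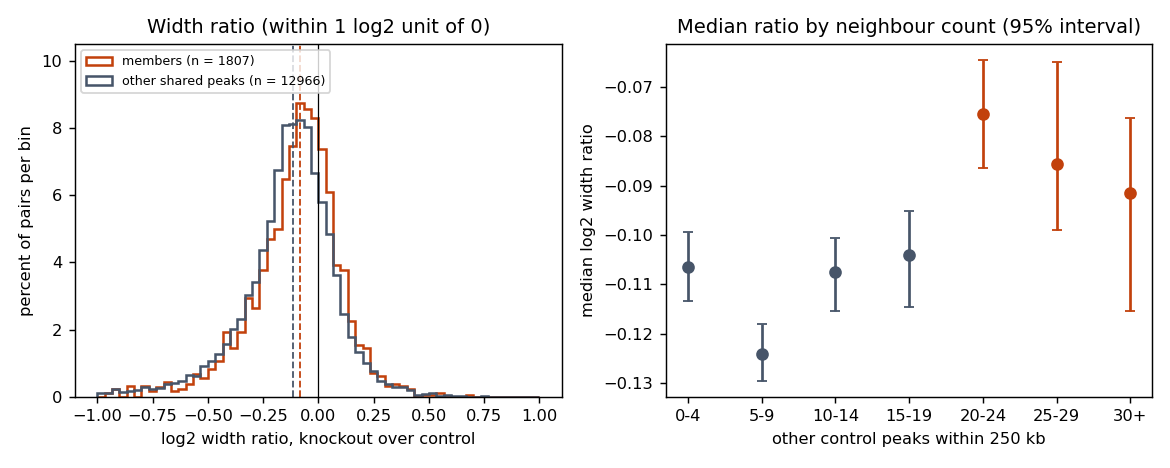
Left, the share of one-to-one pairs by log2 width ratio (knockout over control) in members and in other shared peaks, with dashed lines at the medians of -0.081 and -0.114. Right, the median ratio with its 95% interval by the number of other control peaks within 250 kb, where the 3 classes of 20 or more neighbours lie between -0.091 and -0.076 and the 4 sparser classes between -0.124 and -0.104.

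In single pairs the picture was the same. The knockout peak was narrower in 1278 of the 1807 member pairs (70.7%, interval 68.6 to 72.8), wider in 527 (29.2%) and equal in 2. Among the others it was narrower in 76.3% (interval 75.5 to 77.0), and among all 18299 one-to-one pairs of the lists in 73.8%. The knockout peak had 80% or less of the control width in 237 member pairs (13.1%, interval 11.6 to 14.8) and in 15.2% of the other pairs (interval 14.6 to 15.8), beside 18.2% over all one-to-one pairs, which also include weak peaks. The reverse, a control width of 80% or less of the knockout width, was found in 23 member pairs (1.27%), in 1.31% of the others and in 3.27% of all pairs. The knockout width was 50% or less of the control width in 19 member pairs (1.05%, interval 0.634 to 1.64). The share was 0.902% among the others (interval 0.747 to 1.08) and 1.26% over all one-to-one pairs.

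The ratio did not follow neighbour count steadily. With 0 to 4 neighbours the median was -0.106, with 5 to 9 it was -0.124, with 10 to 14 it was -0.108 and with 15 to 19 it was -0.104. Among members it was -0.076 with 20 to 24 neighbours (997 pairs), -0.086 with 25 to 29 (494 pairs) and -0.091 with 30 or more (316 pairs). The most crowded class thus lay closer to the sparse classes than the class just past the threshold did. Its interval (-0.115 to -0.076) reached those of the classes with 0 to 4, 10 to 14 and 15 to 19 neighbours but not that with 5 to 9. Its share of narrower knockout peaks was 78.5% (interval 73.5 to 82.9), against 69.0% with 20 to 24 neighbours. The share in one-to-one pairs was 95.3% with 20 to 24 neighbours and 90.3% with 30 or more.

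Members were closest in width between genotypes where peaks were wide and scored high. Pairs were cut into 4 classes of equal size by control width. In the narrowest (up to 1619 bp) the median ratio was -0.115 for members and -0.132 for the others, and the intervals overlapped. In the widest class (over 2710 bp) it was -0.064 for members (interval -0.082 to -0.047) and -0.105 for the others (interval -0.111 to -0.099). At a control score of 3100 or more the medians were -0.056 for 984 member pairs (interval -0.066 to -0.046) and -0.100 for 7506 other pairs (interval -0.104 to -0.096). From 1000 to under 3100 they were -0.090 for members and -0.134 for the others. From 300 to under 1000 the order was the opposite, with -0.208 for 335 member pairs (interval -0.248 to -0.168) and -0.169 for 2429 other pairs (interval -0.187 to -0.153), and there the intervals overlapped. When the rule and the score classes were taken from the knockout list instead, the difference in the lowest class was 0.012 (bounds -0.031 and 0.054). With the control list it was -0.039 (bounds -0.095 and 0.019). Both pairs of bounds include 0, so the order in this class is not settled.

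**Figure D3:**
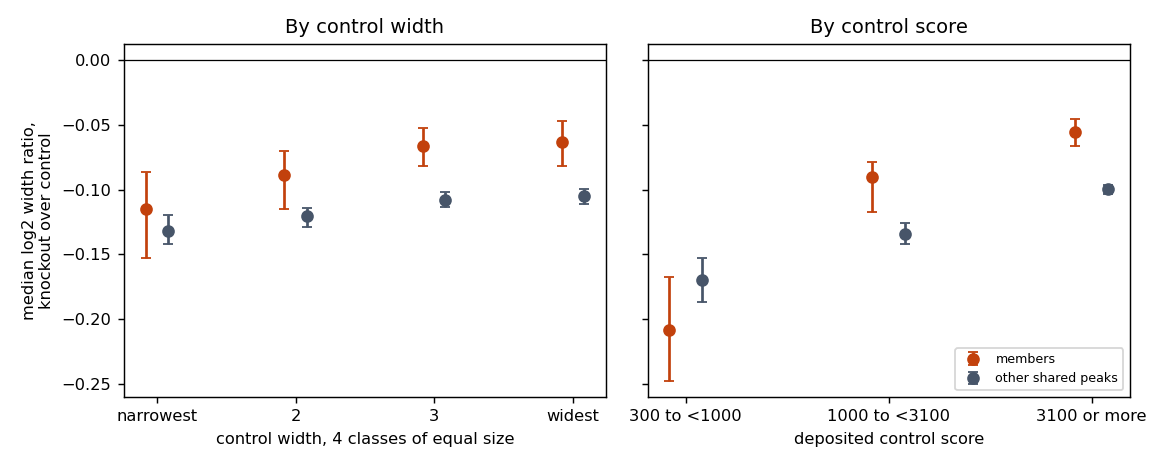
Median log2 width ratio (knockout over control) with 95% intervals for members and other shared peaks, by control width in 4 classes of equal size (left) and by deposited control score (right). Members lie nearer to 0 than the others except in the lowest score class, where their median is -0.208 against -0.169.

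Among the widest members, 79 one-to-one pairs had a control width of 4 kb or more. They measured 4513 bp in knockout and 4758 bp in control islets in the median, with a median log2 ratio of -0.059 (interval -0.086 to -0.0039). The 685 pairs of other shared peaks of this width had -0.090 (interval -0.100 to -0.078), and the intervals overlapped. The 3 widest members of all were a little wider in the knockout list. On chromosome 19 (5795518 to 5804448) the peak was 9433 bp wide in knockout and 8931 bp in control islets. On chromosome 17 (34253076 to 34261562) the widths were 8691 bp in knockout and 8487 bp in control islets, and on chromosome 3 (87941263 to 87949335) they were 8417 bp in knockout and 8073 bp in control islets. All of these scored 3100 in both lists.

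The extreme ratios were taken among pairs whose knockout peak also scored 300 or more. The greatest narrowing was on chromosome 11 (97393072 to 97394917), with 508 bp in knockout and 1846 bp in control islets, a log2 ratio of -1.86, at scores of 341 in knockout and 617 in control islets. A peak on chromosome 17 (36281527 to 36283073) had 680 bp in knockout and 1547 bp in control islets, at scores of 376 in knockout and 3100 in control islets. A peak on chromosome 11 (115641272 to 115643941) had 1270 bp in knockout and 2670 bp in control islets. The chromosome 17 peak is the one among these with a score of 3100 in the control list. In the other direction, 2 of the 3 greatest widenings stood side by side on chromosome 7. One (19886077 to 19886942) had 1376 bp in knockout and 866 bp in control islets, and its neighbour (19889603 to 19890794) had 1761 bp in knockout and 1192 bp in control islets. The remaining one (29079201 to 29080186), also on chromosome 7, had 1440 bp in knockout and 986 bp in control islets. Their log2 ratios lay between 0.55 and 0.67, much smaller in size than the greatest narrowing.

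Loci varied around the common median. In the 68 loci with 10 or more pairs, the locus medians had a median of -0.086 (interval -0.097 to -0.074) and an SD of 0.053, and 67 of them were below 0. The locus median was above that of the other shared peaks in 51 of the 68. Counting each locus once therefore gave nearly the value found over single pairs. The lowest locus median was -0.29, on chromosome 18 (37677726 to 38305522, 17 pairs), and the highest was 0.040, on chromosome 2 (118570613 to 118939199, 10 pairs). Both were picked out after their values were seen.

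**Figure D4:**
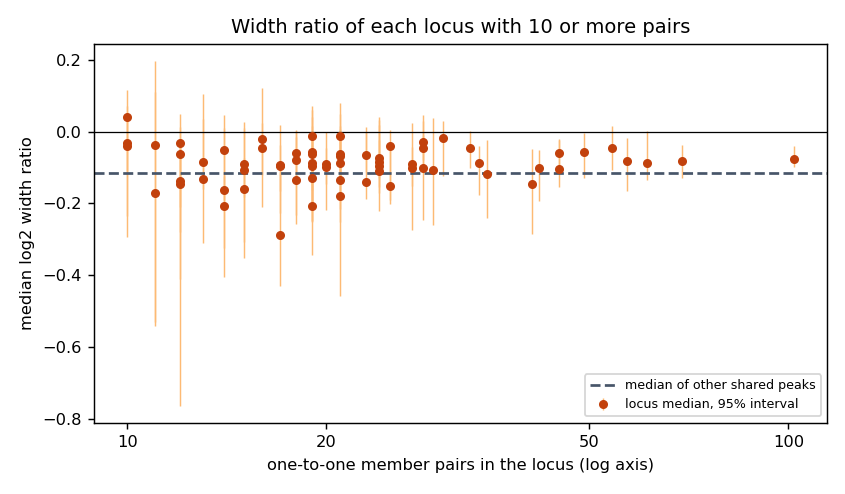
Median log2 width ratio (knockout over control) of each of the 68 loci with 10 or more one-to-one member pairs, with 95% intervals, against the number of pairs on a log axis. All but 1 locus median lie below 0, and 51 lie above the dashed median of the other shared peaks at -0.114.

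The smaller narrowing of members was seen on most chromosomes. Of 17 autosomes with 20 or more member pairs, the member median was above that of the other shared peaks of the same chromosome on 16. The difference ranged from 0.006 on chromosome 1 to 0.081 on chromosome 3 among these. The intervals of members and others did not overlap on chromosomes 3 and 10, and overlapped on the rest of the 17. Chromosome 18 was the exception in direction, with -0.183 over 28 member pairs (interval -0.334 to -0.097). Its other shared peaks had -0.113 (interval -0.141 to -0.092). Of those 28 pairs, 17 lay in the locus with the lowest median named above, so this is not a separate observation.

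The shifts of the peak borders are given by side along the chromosome. The median member had its left border moved inward by 56 bp (interval 46 to 63) and its right border by 60 bp (interval 50 to 67) in the knockout list. Left and right were taken without gene direction, so these medians cannot show whether single peaks narrowed on both sides. In the other shared peaks the shifts were 76 bp on the left (interval 71 to 78) and 77 bp on the right (interval 74 to 80). Within one-to-one pairs the distance to the next peak made little difference. A knockout peak that reached another control peak was left out, which cuts off large outward moves where the next peak is near. Member borders that faced another control peak at under 2 kb lay 60 bp further in (357 borders, interval 46 to 76), and those with 20 kb or more of free space lay 56 bp further in (1073 borders, interval 44 to 64). The other shared peaks gave 70 bp where the next peak was under 2 kb away and 78 bp with 20 kb or more of free space. Members with a nearest peak under 2 kb away had a median ratio of -0.083, and those with none within 20 kb had -0.074.

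**Figure D5:**
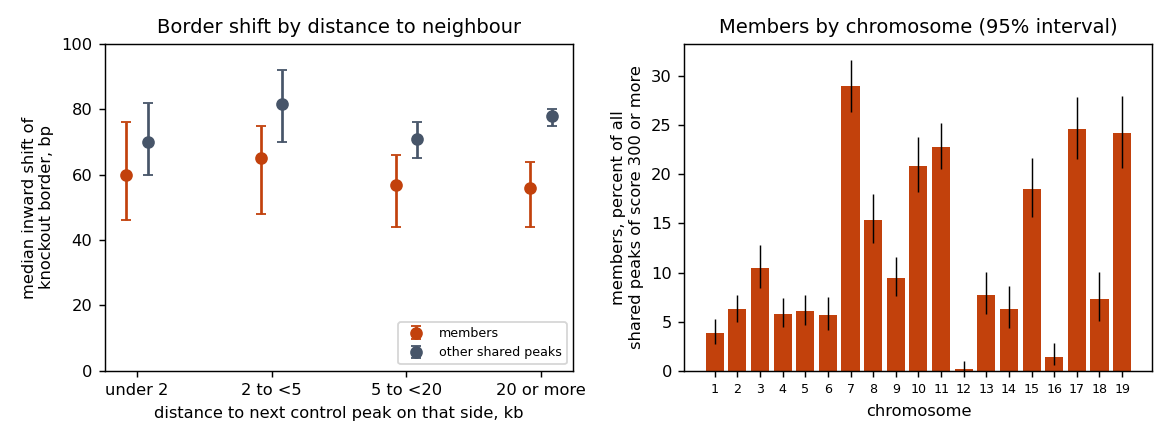
Left, the median inward shift of knockout peak borders in bp, with 95% intervals, by distance to the next control peak on that side, for members and other shared peaks. The shift of members stays between 56 and 65 bp in all 4 distance classes. Right, members as a percent of all shared peaks of score 300 or more on each autosome, with 95% intervals, highest at 29.0% on chromosome 7.

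The spaces between neighbouring peaks were correspondingly wider in the knockout list. Over 1272 spaces between consecutive member pairs, the knockout gap exceeded the control gap by a median of 112 bp (interval 96 to 125) and was the wider in 70.9%. The gaps themselves had a median of 11155 bp in knockout and 11054 bp in control islets. Between consecutive other shared peaks the excess was 160 bp (interval 154 to 166), and the knockout gap was the wider in 77.5% (interval 76.6 to 78.4). These gaps are bounded by the same borders as the widths and are not separate evidence.

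Not every member had a single partner. Of the 1928 members, 121 (6.28%, interval 5.23 to 7.45) were not in one-to-one pairs, against 3.82% of the others (interval 3.50 to 4.16). Of these, 75 were split into 2 or more knockout peaks, 36 met a knockout peak that also reached another control peak, and 10 did both. A knockout peak that bridged control peaks was met by 2.39% of members (interval 1.75 to 3.17) and 0.964% of the others (interval 0.806 to 1.14). Overlap with 2 or more knockout peaks was found for 4.41% of members (interval 3.54 to 5.42) and 3.02% of the others (interval 2.74 to 3.32). Peaks at short distances can be joined or parted by a small move of a border, and the part of spacing in these shares was not tested. When touching peaks were joined, the 106 regions that held these members covered a median of 3152 bp in the knockout list and 3439 bp in the control list, with a median log2 ratio of -0.073 (interval -0.100 to -0.044). The median ratio of these regions was thus close to that of the paired members, while the regions themselves were longer. The 486 such regions of the other shared peaks had a median ratio of -0.106 (interval -0.130 to -0.090), and the intervals overlapped.

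The loci hold the 1928 members, which are shared by the rule, and begin and end on them, so a lower share of one-list peaks inside than outside is partly fixed by the choice and is given as a description. Of 2423 knockout peaks in the loci, 98 (4.04%, interval 3.30 to 4.91) had no control partner, against 9.37% (interval 8.95 to 9.80) of autosomal knockout peaks outside. Of 2454 control peaks in the loci, 197 (8.03%, interval 6.98 to 9.17) had no knockout partner, against 13.3% (interval 12.8 to 13.8) of autosomal control peaks outside. By neighbour count alone, which does not use sharing, 91.4% of autosomal control peaks of any score with 20 or more neighbours were shared (interval 90.2 to 92.5), against 86.8% of those with fewer (interval 86.3 to 87.2). Peak score moved with this. Control peaks scoring under 300 made up 19.4% of the autosomal control peaks with 20 or more neighbours and 27.5% of those with fewer. At a score of 300 or more, 99.1% of dense control peaks (interval 98.6 to 99.5) and 98.9% of the others (interval 98.7 to 99.1) were shared. Under 300, 59.3% of dense control peaks (interval 54.7 to 63.8) and 54.7% of the others (interval 53.3 to 56.0) were shared. The shares thus lay close together at a score of 300 or more. Under 300 the dense share was the higher, with overlapping intervals.

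Peak numbers in the loci were nearly equal between genotypes. The knockout list had more peaks than the control list in 26 loci, the same number in 27 and fewer in 46. Members in pairs had a median of 24 knockout neighbours, with their partner left out, and 24 control neighbours, although the rule selected on the control count, and the median of the difference was -1. The total length marked in the loci was 4.56 Mb in knockout and 4.94 Mb in control islets, or 92.4% of the control length, against 89.9% on the autosomes outside the loci. Mean peak width inside was 1884 bp in knockout and 2014 bp in control islets. Outside it was 1773 bp in knockout and 1927 bp in control islets. As with the one-list shares, these contrasts with the outside are partly fixed by the choice of members and are given as a description. In 11 of the 99 loci the knockout list covered more length than the control list.

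A neighbour count and a score bound the members, and peaks next to each threshold are given here. Many peaks tie at 20 or 19 neighbours, and those named are the first by chromosome and start. On chromosome 1 a peak with 20 neighbours (74759114 to 74760877) had 1436 bp in knockout and 1764 bp in control islets, and a nearby peak with 19 neighbours (74817538 to 74819986) had 2442 bp in knockout and 2449 bp in control islets. The next such peaks were one with 20 neighbours (75137099 to 75140995), of 4033 bp in knockout and 3897 bp in control islets, and one with 19 (74830218 to 74831564), of 1217 bp in knockout and 1347 bp in control islets. At the score threshold, the weakest members scored 301.2 on chromosome 4 (151481434 to 151482444), with 609 bp in knockout and 1011 bp in control islets, and 301.3 on chromosome 10 (79810403 to 79811790), with 974 bp in knockout and 1388 bp in control islets. The strongest dense peaks left out scored 299.3 on chromosome 10 (79834079 to 79834884), with 631 bp in knockout and 806 bp in control islets, and 299.4 on chromosome 11 (115705502 to 115707078), with 1686 bp in knockout and 1577 bp in control islets. The 221 peaks with exactly 20 neighbours had a median log2 ratio of -0.066, and the 289 with 19 had -0.099.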

How the data were processed

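H3K4me3 ChIP-seq peak lists of 2 samples were used, Men1 knockout and RIP-Cre islets at 2 months of age, with 1 library per genotype. Per the submitters' processing notes, Bowtie, MACS 1.4.2 and the build mm9 were used. How the input libraries were used, and other settings, were not given in the sources used here. The deposited lists carry no header and give each peak's position and score. In MACS output this score is usually a transformed p-value, and its scale was not stated in the lists. The lowest deposited scores were 60.01 in control and 60.02 in knockout islets. Read depth is unknown, and scores were used within a list only. Lists were assigned to samples through the genotype, age and mark in their names, which also carry an unexplained word ("2nd"), and 0 per-sample columns were left unused.

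Overlaps of 1 bp or more, neighbour counts, gaps and width ratios were computed with Python 3.11.15, pandas 2.3.3 and SciPy 1.17.1. Shared counts equalled those of bedtools 2.31.1, and the functions were tested on simulated data. Positions are counted from 1. The members and the quantities described were chosen with earlier results of these data known. Regions were named by a rule: the 5 loci with most members, the members with most neighbours and the 3 widest. The rule also named the 3 lowest and 3 highest ratios with a knockout score of 300 or more, and peaks next to each threshold. Among peaks tied at a neighbour count, the first by chromosome and start were taken. The gene and promoter tables at hand describe another build (GRCm38), so no genes are named and no sequences are shown. Alternatives were a reciprocal overlap of 50%, a control score of at least 1000 and a neighbour minimum of 15 or 25. Further ones were merging of peaks within 1 kb, knockout-list neighbours, covered length of joined regions, and scores of 3100 or more in both lists.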

Additional observations from a re-analysis of the deposited data

How the results depend on the processing

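The difference between members and other shared peaks stayed above 0 in all 29 alternatives run. Of 154 recomputed values, 133 stayed within the interval of the main setting (or 1.5 times, for the count). Both totals include runs with each of the 19 autosomes left out in turn. Those runs keep most peaks, and their values all stayed within the interval. For a difference, the interval used ran between opposite ends of the intervals of members and others. It is wider than a 95% interval for a difference, so values stay within it more easily. The number of members came to 3509 with a neighbour minimum of 15 and 882 with 25. The median ratio of members was -0.067 at a control score of at least 1000, -0.092 with a neighbour minimum of 15 and -0.047 where the scores of both lists were 3100 or more. That of the others was -0.107 at a score of at least 1000 and -0.093 at 3100 or more, where the difference was 0.046. The share of members narrower in knockout islets was 72.8% with a neighbour minimum of 25 and 65.4% at 3100 or more. Median control widths at a score of at least 1000 were 2235 bp for members and 2327 bp for the others. Shared control peaks made up 96.1% in dense and 97.2% in other regions with a reciprocal overlap of 50%, the opposite order, and 91.4% in dense and 86.8% in other regions with no score minimum. In alternatives added after seeing the data, a knockout score of 300 or more gave medians of -0.069 for members and -0.105 for the others. The rule applied to the knockout list gave -0.068 for members and -0.101 for the others, with 68.3% of its members narrower in knockout islets. The difference was smallest at the other neighbour minimums, with 0.023 at both 15 and 25 (lower bound 0.0091 at 25). With each chromosome left out in turn the difference ranged from 0.029 to 0.035. The score minimums of 1000 and 3100 leave out the lower-scoring pairs. For the other shifts the cause was not tested. No paired analysis was possible because there is 1 library of each genotype. The read depth behind the lists is unknown, and the detection limit of a peak with it.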

Other observations

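The following loci were picked out after their values were seen, those on chromosomes 10 and 5 for peak numbers and those on chromosomes 18 and 2 for median ratio. Over all 99 loci the knockout list had more peaks in 26 and fewer in 46. The greatest excess of knockout peaks was in a short locus of 115 kb on chromosome 10 (81589910 to 81704681), with 20 knockout and 10 control peaks that covered 19.9 kb in knockout and 16.5 kb in control islets. Of its knockout peaks 6 had no control partner, and all of its control peaks were shared. At the opposite end, a locus on chromosome 5 (144134250 to 144168163) had 3 knockout and 4 control peaks. The chromosome 18 locus with the lowest median ratio had 54 knockout and 45 control peaks, of which 14 knockout and 9 control peaks had no partner, and its covered length was 61.7 kb in knockout and 61.6 kb in control islets. There the member peaks were narrower while the total marked length was nearly equal. The locus on chromosome 2 with the highest median ratio had 19 knockout and 16 control peaks that covered 29.4 kb in knockout and 28.5 kb in control islets. No test of these counts was made, since each genotype has 1 library.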
